A study of Mus musculus with 18 samples.

Results

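The clustered protocadherin genes were examined for H3K27me3 and H3K27ac in bone marrow-derived macrophages (BMDM). Members were the protein-coding genes of mouse chromosome 18 whose GENCODE symbol is Pcdha, Pcdhac, Pcdhb, Pcdhga, Pcdhgb or Pcdhgc followed by a number. This rule gave 57 of 21866 protein-coding genes, with 14 in the alpha cluster, 22 in the beta cluster and 21 in the gamma cluster. The rule itself uses no measured value, but it was chosen with earlier results of these data known. The symbol Pcdha11 is carried by 2 gene identifiers, ENSMUSG00000007440.10 and ENSMUSG00000102206.5, which were counted as separate members.

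BMDM were grown for 7 days in medium with L929 cell supernatant, a source of macrophage colony-stimulating factor, and were not stimulated. WT samples were labelled C57BL6, mdx samples Dmdmdx-4Cv (a mutation of the dystrophin gene, the model of Duchenne muscular dystrophy), and mdxTLR4-/- samples Bl6/Bl10, mice with both the dystrophin mutation and a loss of the innate immune receptor TLR4. The H3K27me3 experiment had 2 ChIP and 2 input libraries per genotype, and the H3K27ac experiment had 2 WT, 2 mdx and 1 mdxTLR4-/- ChIP libraries beside 1 input of no stated genotype. Labelled ages were 12 to 13 weeks for the WT H3K27me3 ChIP libraries, 14 to 15 for mdx and 16 to 17 for mdxTLR4-/-, and 19 to 20, 21 to 22 and 23 weeks for the H3K27ac ChIP libraries in the same order. Inputs were labelled 6 to 11 weeks for H3K27me3 and 18 weeks for H3K27ac. Over the 18 libraries the labelled age goes up by exactly 1 week per library in the order deposited, from 6 to 23 weeks, and whether they are the ages of the mice is not given in the sources used here. The strain label Bl6/Bl10 also differs from the C57BL/6J background that the methods of the study name for its WT, mdx and TLR4-/- mice. Genotype, labelled strain and labelled age cannot be told apart. The authors merged the replicates before calling peaks, so that each mark and genotype has 1 peak list. Differences between genotypes thus have no replicate check, and none is given a p-value.

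Clustered protocadherins are adhesion molecules of the cadherin superfamily and are best known in neurons, where each cell uses a small choice of them as a surface identity. Every gene has a promoter of its own and a long variable first exon that encodes the extracellular part. In the alpha and gamma clusters this exon is spliced to a set of constant exons shared by the whole cluster, while beta genes lack constant exons. The C-type members at the ends of the alpha and gamma clusters are known to be used more uniformly between neurons than the others. H3K27me3 is the mark of Polycomb repressive complex 2 and forms broad domains over silent genes, and H3K27ac marks active promoters and enhancers.

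The 3 clusters lie one after another on chromosome 18 of GRCm38. The alpha cluster spans chr18:36930184-37187661, the beta cluster chr18:37264938-37524479 and the gamma cluster chr18:37661793-37841873. Alpha and gamma transcripts used here have 4 exons and beta transcripts 1 exon. Because the last 3 exons are common to all 14 alpha genes and to all 21 gamma genes, gene bodies overlap, and the first exon is the stretch that tells members apart. A first exon was called covered where at least 50% of its length lay under H3K27me3 peaks.

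H3K27me3 over the 57 genes was a feature of the gamma cluster and of the last alpha gene. In WT BMDM 15 of 21 gamma first exons were covered, in mdx BMDM 15 and in mdxTLR4-/- BMDM 12. In the alpha cluster 1 of 14 was covered in each genotype, and in the beta cluster 0 of 22 in each genotype. Together, 16, 16 and 13 of 57 first exons were covered in WT, mdx and mdxTLR4-/- BMDM, which is 28.1%, 28.1% and 22.8% of members, beside 23.7%, 24% and 23% of all protein-coding genes. The share over the whole family thus lay near that of all genes, while its members were split by cluster (71.4%, 71.4% and 57.1% of gamma genes).

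**Figure D1:**
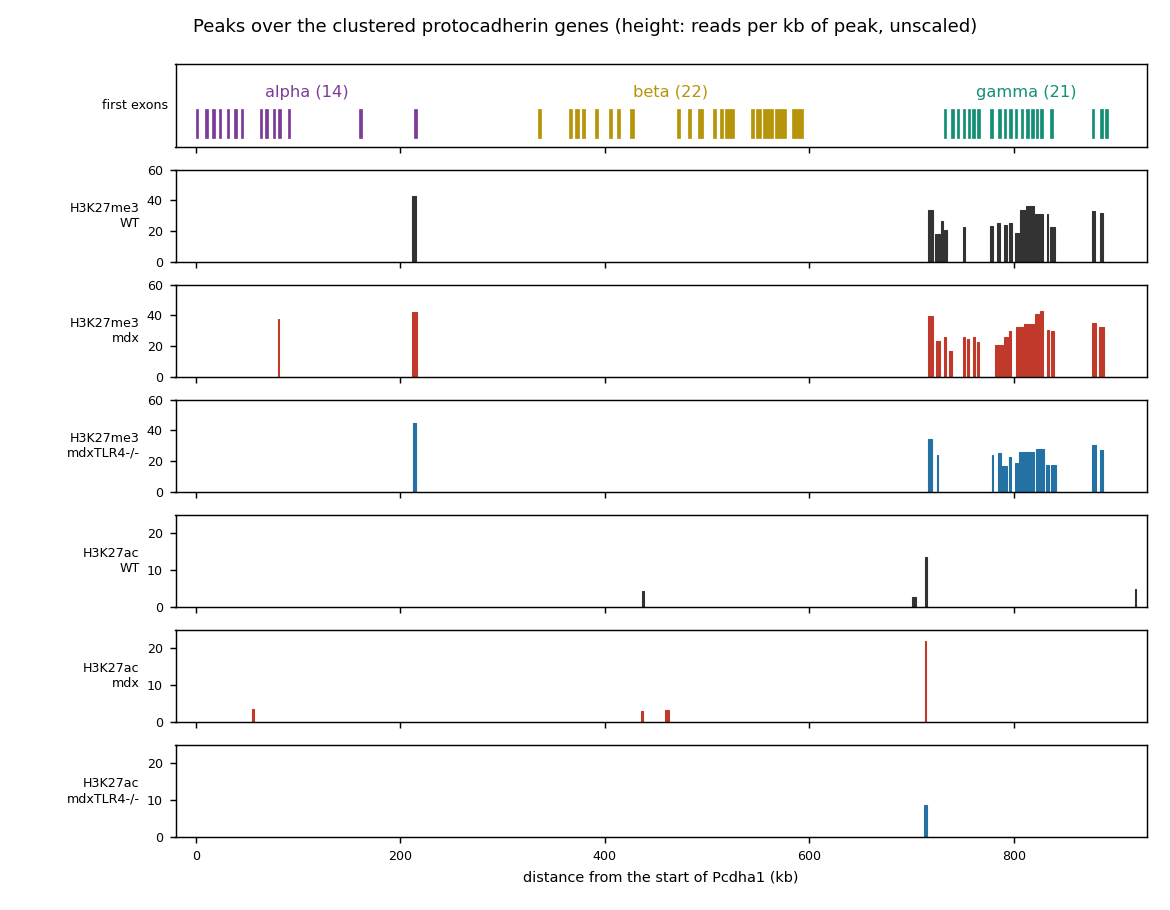
Peaks over the 3 clusters by mark and genotype. The x axis is the distance from the start of Pcdha1 in kb, the top track shows the first exons of the 57 members, and the height of a box is the count of ChIP reads per kb of peak, unscaled. H3K27me3 boxes sit at the last alpha first exon, over the gamma cluster and just ahead of it, with 1 more over the alpha cluster in mdx and none over the beta cluster, and the few H3K27ac boxes lie outside all first exons.

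First exons of these genes are long, with a median of 2490 bp in the alpha, 3714 bp in the beta and 2607 bp in the gamma cluster, against 218 bp over all protein-coding genes. Among the 372 other genes with a first exon of at least 2346 bp, the length of the shortest member's, 37.4% were covered in WT BMDM, 35.2% in mdx and 35.2% in mdxTLR4-/-. The share of the gamma cluster was above these values, and the shares of the alpha cluster (7.14%) and of the beta cluster (0%) were below them.

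In the alpha cluster the mark was found at Pcdhac2, the C-type gene closest to the constant exons. In WT BMDM 62.7% of its first exon was covered, in mdx BMDM 100% and in mdxTLR4-/- BMDM 56.1%. The peak lay at chr18:37141401-37145400 with 171 reads in WT BMDM, at chr18:37141801-37146600 with 203 reads in mdx and at chr18:37142401-37145200 with 126 reads in mdxTLR4-/-. These peaks begin upstream of the gene start at 37143503 and run into the first exon. The density of these peaks was 42.8, 42.3 and 45.0 reads per kb in the same order, above that of every peak over the gamma cluster in WT and mdxTLR4-/- BMDM. In mdx BMDM the densest gamma peak held 42.7 reads per kb.

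The other C-type alpha gene, Pcdhac1, had 0% of its first exon covered in each genotype. Pcdha1, the first gene of the cluster, and the remaining alternate genes up to Pcdha12 also had 0%, with 1 exception. In mdx BMDM a peak of 800 bp at chr18:37010601-37011400 with 30 reads covered 26.0% of the first exon of Pcdha11 (ENSMUSG00000102206.5). The other gene named Pcdha11 had 0% in mdx BMDM. Few WT peaks were so short, and the 105 WT peaks within 200 bp of that length held at least 29 reads, with a 5th percentile of 33.2 reads. The 1598 mdxTLR4-/- peaks within 200 bp of that length held at least 19 reads, with a 5th percentile of 22 and a median of 28. The lists are not corrected for depth, and its part in the absence of a WT or mdxTLR4-/- peak was not tested.

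In the beta cluster no H3K27me3 peak was present in any genotype, from Pcdhb1 (the first gene) to Pcdhb22 (the last). With 0 of 1299 windows of 200 bp under a peak, the upper limit of the 95% Wilson interval was 0.295% of windows. Neighboring windows are not independent of each other, so this limit is narrower than the data warrant. The absence of a peak says that no stretch passed the FDR of the peak caller at the depth of these libraries, which is unknown here. The 77.3 kb between the alpha and beta clusters also held no peak of this mark.

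The gamma cluster carried many separate peaks, arranged by first exon. Of its 180 kb, H3K27me3 peaks covered 31.3% of windows in WT BMDM (95% Wilson interval 28.3 to 34.4%, 14 peaks, 1584 reads), 35.1% in mdx BMDM (32.1 to 38.3%, 17 peaks, 1895 reads) and 28.5% in mdxTLR4-/- BMDM (25.6 to 31.5%, 11 peaks, 1229 reads). The intervals of mdx and mdxTLR4-/- did not overlap each other, and both overlapped that of WT. With 1 list per genotype and the covered windows grouped in 11 to 17 peaks, such overlap cannot decide whether genotypes differ. The lists differed in size, with 28143 peaks for WT, 41780 for mdx and 36488 for mdxTLR4-/-. With all lists reduced to the peak number of the WT list by density, gamma coverage was 31.3% for WT, 27.2% for mdx and 19.6% for mdxTLR4-/-. The value of mdx was then below that of WT. This reduction changed list size and lowest density together, so the part of either was not tested. With peaks of at least 1.5 times the 1st percentile of density of their list, coverage was 21.5%, 22.0% and 19.6% in the same order. There mdx stayed above WT. The Wilson intervals describe counting error over windows, which are not independent of each other, and not the spread between mice. The median peak was 3400 bp long in WT BMDM, 3000 bp in mdx and 3600 bp in mdxTLR4-/-, and starts of neighboring gamma genes were a median of 5.35 kb apart.

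**Figure D2:**
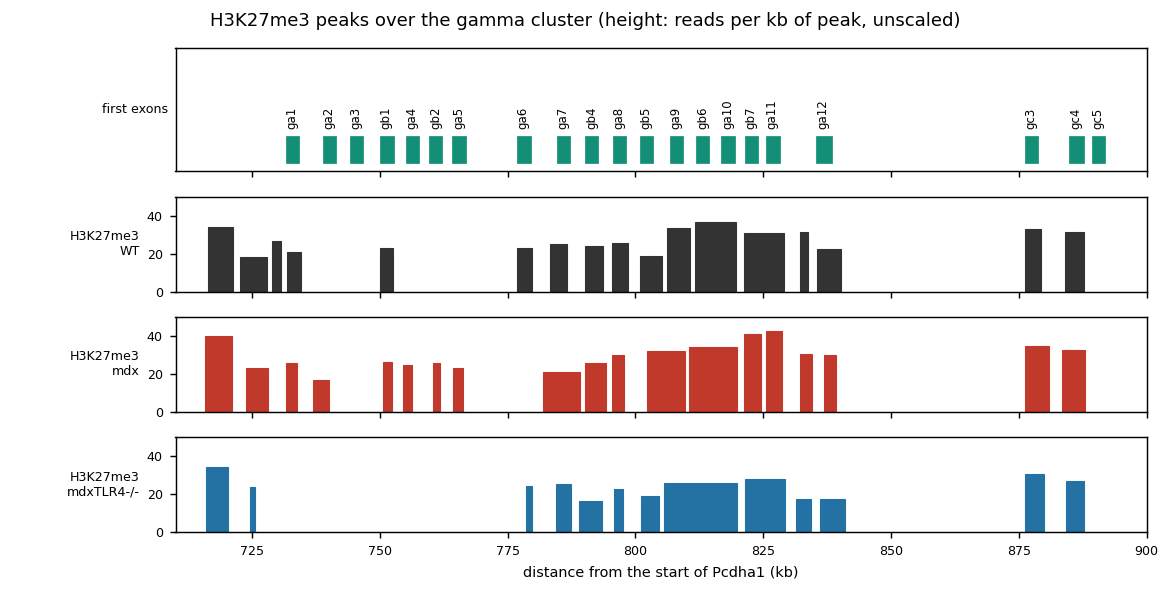
H3K27me3 peaks over the gamma cluster by genotype. The x axis is the distance from the start of Pcdha1 in kb, names in the top track omit the prefix Pcdh, and the height of a box is the count of ChIP reads per kb of peak, unscaled. Peaks over Pcdhga7 to Pcdhgc4 are present in all 3 tracks, while those over the first genes of the cluster differ from track to track.

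Peaks followed the first exons. In WT BMDM 68.6% of the bases under gamma peaks lay in first exons, in mdx BMDM 60.5% and in mdxTLR4-/- BMDM 60.3%, although first exons make up 30.6% of the cluster. Of 14 WT peaks, 11 touched the first exon of 1 member, 2 touched those of 2 members and 1 touched none. In mdx BMDM 14 of 17 peaks touched 1 member, 2 touched 2 and 1 touched none. In mdxTLR4-/- BMDM 8 of 11 touched 1 member, 1 touched 2, 1 touched 3 and 1 touched none. The members are thus not independent observations where a peak is shared. The peak that touched none lay in each genotype over Pcdhgb8, which the annotation lists as a polymorphic pseudogene and which is no member, and covered 64.0%, 76.0% and 100% of its first exon in WT, mdx and mdxTLR4-/- BMDM.

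Within a gene, coverage lay downstream of the start. At the start 57.1% of the 21 gamma genes were under a peak in WT BMDM, and at 1 kb downstream 71.4%. In mdx BMDM these shares were 47.6% and 76.2%, and in mdxTLR4-/- BMDM 38.1% and 57.1%. At 1 kb upstream, 19.0% of gamma genes were under a peak in WT BMDM, 42.9% in mdx and 28.6% in mdxTLR4-/-, and 4 kb past the start the shares were 19.0%, 28.6% and 19.0%. Starts of neighboring genes lie within the outer distances of this profile.

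**Figure D3:**
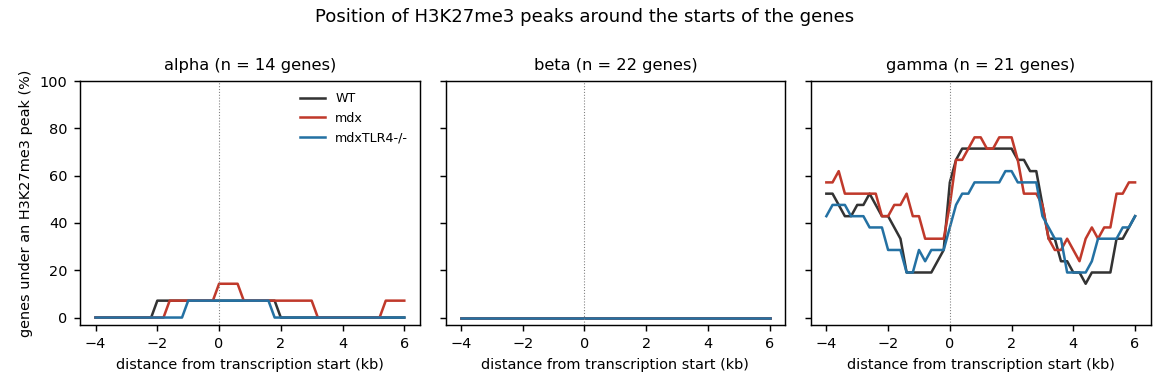
Position of H3K27me3 peaks around the starts of the members. The x axis is the distance from the transcription start in kb, positive in the direction of transcription, the y axis is the share of genes of the cluster under a peak, and lines stand for the 3 genotypes. In the gamma cluster the share is highest within 2 kb after the start (71.4% in WT BMDM, 76.2% in mdx and 61.9% in mdxTLR4-/-), and in the beta cluster all 3 lines lie at 0.

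The constant exons carried neither mark. All 3 shared exons of the alpha cluster and all 3 of the gamma cluster had 0% of their length under H3K27me3 peaks and 0% under H3K27ac peaks in each genotype. Pcdhgc5, the last gamma gene and the one nearest to the constant exons, had 0% of its first exon under H3K27me3 in each genotype. Its C-type neighbors Pcdhgc3 and Pcdhgc4 had 100% in each genotype.

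By subfamily, the covered gamma genes were found among all 3 types. Of 12 Pcdhga genes, 8 were covered in WT BMDM, 8 in mdx and 6 in mdxTLR4-/-. Of 6 Pcdhgb genes the counts were 5, 5 and 4, and of 3 Pcdhgc genes 2, 2 and 2. By position, the cluster was more uneven. Of the first 7 gamma genes, Pcdhga1 to Pcdhga5, 2 were covered in WT BMDM, 4 in mdx and 0 in mdxTLR4-/-, and mean first-exon coverage was 27.2%, 54.6% and 0%. Of the middle 7, Pcdhga6 to Pcdhgb6, 7, 5 and 6 were covered, with means of 96.7%, 76.0% and 84.9%. Of the last 7, Pcdhga10 to Pcdhgc5, 6 were covered in each genotype, with means of 85.6%, 78.5% and 82.7%.

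Designations were compared between genotypes with I (increased) for a covered first exon and U (unchanged) for one that was not, in the order WT, mdx, mdxTLR4-/-. The study uses these letters otherwise, for H3K27me3 reads significantly above input over a peak or a gene window. No test against input was run here, so the patterns below are not those of the study. Of the 21 gamma genes, 11 were III: Pcdhga7, Pcdhgb4, Pcdhga8, Pcdhga9, Pcdhgb6, Pcdhga10, Pcdhgb7, Pcdhga11, Pcdhga12, Pcdhgc3 and Pcdhgc4. With Pcdhac2, 12 members were covered in all 3 genotypes, which is 21.1% of the 57, beside 20.6% of all protein-coding genes. A further 4 gamma genes were UUU, and 6 differed between genotypes.

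**Figure D4:**
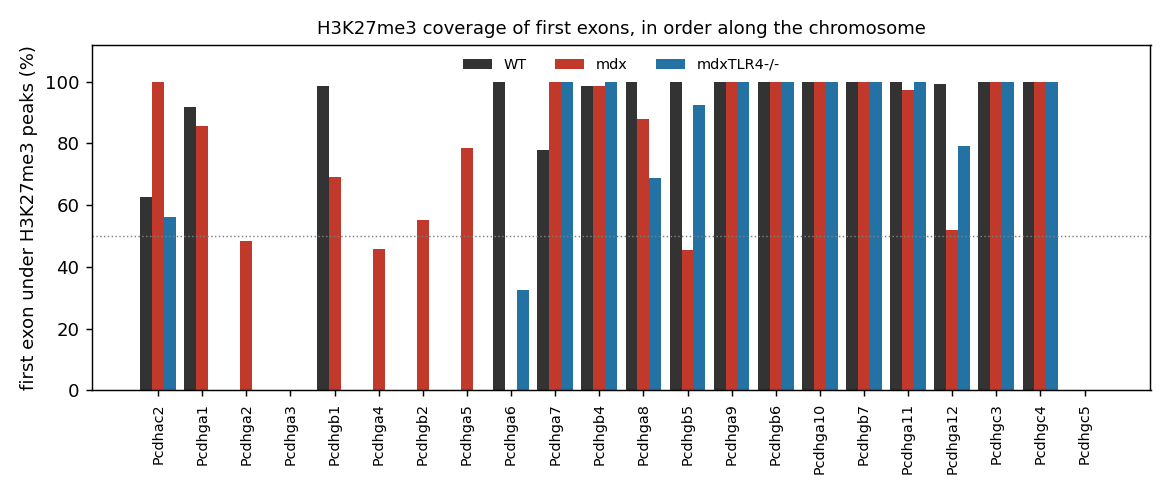
First-exon coverage by H3K27me3 of Pcdhac2 and the 21 gamma genes in order along the chromosome. The y axis is the percent of the first exon under peaks, bars stand for the 3 genotypes, there is 1 list per genotype and so no error bar, and the dotted line marks 50%. From Pcdhga7 to Pcdhgc4 all bars except that of Pcdhgb5 in mdx are above the line, and from Pcdhga1 to Pcdhga5 no mdxTLR4-/- bar is above 0.

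The pattern IIU was found for Pcdhga1 and Pcdhgb1. The first exon of Pcdhga1, the first gamma gene, was covered by 91.9% in WT and 85.5% in mdx BMDM, under peaks of 58 and 57 reads, and by 0% in mdxTLR4-/- BMDM. That of Pcdhgb1 was covered by 98.5% in WT (59 reads) and 69.0% in mdx BMDM (47 reads), and by 0% in mdxTLR4-/- BMDM. In the mdxTLR4-/- list, peaks within 200 bp of the lengths of these 4 peaks held as few as 24 to 31 reads, with 5th percentiles of 31 to 41 reads. The reads of the mdxTLR4-/- ChIP at these genes are not in the lists.

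The pattern UIU was found for Pcdhgb2, with 55.1% in mdx BMDM (36 reads), and for Pcdhga5, with 78.6% in mdx BMDM (46 reads). Both had 0% in WT and 0% in mdxTLR4-/- BMDM. Mdx peaks with no counterpart also lay at Pcdhga2, with 48.5% of the first exon (53 reads), and at Pcdhga4, with 45.7% (44 reads), just under the 50% at which a first exon counts as covered. Set beside the WT list, all 4 of these mdx peaks held few reads for their length. WT peaks within 200 bp of the same lengths held at least 35 to 50 reads, with 5th percentiles of 40 to 57 reads. Each mdx count was at or below the matching WT 5th percentile, on a scale that does not correct for depth. In the mdxTLR4-/- list the 5th percentiles were 28 to 45 reads, below each of the mdx counts. Within the mdx list, the share of peaks of lower density was 34.0% for the peak at Pcdhgb2 and 25.7% for that at Pcdhga4. It was 17.2% for that at Pcdhga5 and 0.258% for that at Pcdhga2.

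A first exon covered in WT but not in mdx BMDM was found at Pcdhga6 and Pcdhgb5. Pcdhga6 (IUU) was covered by 100% in WT (69 reads), by 0% in mdx and by 32.6% in mdxTLR4-/- BMDM (29 reads). In the mdx list, peaks within 200 bp of the length of the WT peak held at least 40 reads, with a 5th percentile of 54 and a median of 74. Pcdhgb5 (IUI) was covered by 100% in WT BMDM, 45.4% in mdx and 92.5% in mdxTLR4-/-. Its mdx peak, which also covers Pcdhga9, held 239 reads at 32.3 reads per kb over both genes, while its WT and mdxTLR4-/- peaks, which touch no other member, held 18.9 reads per kb. Reads over the uncovered part of Pcdhgb5 are not in the lists.

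The remaining UUU genes were Pcdhga3 and Pcdhgc5, at 0% in every genotype. The covered gamma gene closest to the limit in mdx BMDM was Pcdhga12, with 52.0%, beside 99.3% in WT and 79.0% in mdxTLR4-/- BMDM. In WT BMDM the lowest covered gamma gene was Pcdhga7 with 78.0%, and no uncovered gene was above 0%. In mdxTLR4-/- BMDM the lowest covered was Pcdhga8 with 68.9% and the highest uncovered was Pcdhga6 with 32.6%.

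Few members changed designation between any 2 genotypes. From WT to mdx, 2 of 57 members lost the designation (3.51%, beside 1.89% of all genes) and 2 gained it (3.51%, beside 2.23%). Between WT and mdxTLR4-/- BMDM, 3 members were covered in WT alone of the pair (5.26%, beside 2.36%) and 0 in mdxTLR4-/- alone (beside 1.68%). Between mdx and mdxTLR4-/- BMDM, 4 were covered in mdx alone (7.02%, beside 2.54%) and 1 in mdxTLR4-/- alone (1.75%, beside 1.53%). The counts are small, the members concerned lie close together, and each list enters 2 of these 3 pairs, so that no difference between genotypes can be read from these shares. Which genes differed depended on the peaks used. With peaks limited to at least 1.5 times the 1st percentile of density of their list, the 6 gamma genes above were uncovered in every genotype, and 3 others differed instead, namely Pcdhga7 (IUI), Pcdhgb4 (IUU) and Pcdhga12 (UIU). With all lists reduced to the peak number of the WT list by density, Pcdhga1, Pcdhgb1, Pcdhgb4 and Pcdhga12 were IIU, Pcdhga7 was IUI, Pcdhga6 and Pcdhgb5 were IUU and Pcdhgb2 was UIU.

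Where peaks overlapped in all 3 genotypes, read densities were compared. Peaks over the gamma cluster merged into 15 regions, 8 of them present in all genotypes. In these 8, peaks were called separately in each genotype and covered 48 kb in WT, 51 kb in mdx and 50.2 kb in mdxTLR4-/- BMDM, with 1398, 1612 and 1200 reads. Per base under peaks, they held 29.1 reads per kb in WT BMDM, 31.6 in mdx and 23.9 in mdxTLR4-/-. The unscaled ratio of mdx to WT was 1.09 (95% exact Clopper-Pearson interval 1.01 to 1.17), and that of mdxTLR4-/- to WT was 0.821 (0.759 to 0.887). These are ratios of densities over unequal bases, and the intervals cover counting error only. Over all 17103 regions shared by the 3 genotypes the median ratio was 1.22 for mdx (quartiles 1.12 and 1.33) and 0.959 for mdxTLR4-/- BMDM (quartiles 0.875 and 1.06), each a ratio of a single region and not a pooled value. Scaled to reads in peaks, the mdx ratio became 0.886 (0.825 to 0.953) and thus changed direction, and the mdxTLR4-/- ratio became 0.929 (0.860 to 1.00), with an upper bound just above 1.

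At Pcdhac2 the unscaled ratio was 0.989 (0.803 to 1.22) for mdx and 1.05 (0.830 to 1.33) for mdxTLR4-/- BMDM, and both intervals include 1. Scaled to reads in peaks these ratios were 0.808 (0.656 to 0.996) and 1.19 (0.939 to 1.51). Among covered gamma genes, peak density ranged from 18.9 reads per kb at Pcdhgb5 to 36.5 at Pcdhgb6 in WT, from 20.8 at Pcdhga7 to 42.7 at Pcdhga11 in mdx, and from 16.6 at Pcdhgb4 to 30.8 at Pcdhgc3 in mdxTLR4-/- BMDM. Medians were 25.3, 30.0 and 25.9 reads per kb.

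The first exons were also compared by base composition, which the choice of members did not use. Median GC content was 53.1% in the alpha, 46.0% in the beta and 52.6% in the gamma cluster, against 60.2% over all protein-coding genes. The ratio of observed to expected CpG dinucleotides had medians of 0.665, 0.386 and 0.533, against 0.656. First exons over all protein-coding genes are far shorter, with a median of 218 bp, and composition was not compared with a set of like length. The beta genes, which had no H3K27me3 peak, had the lowest medians of both measures. Alpha genes were highest in median CpG ratio, and the alternate genes Pcdha1 to Pcdha12 (0.613 to 0.773, n = 12) had 0% coverage in WT BMDM.

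**Figure D5:**
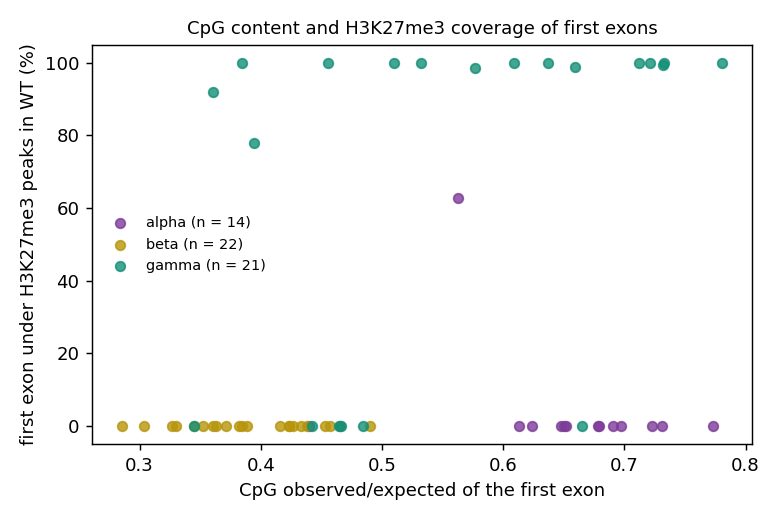
CpG content and H3K27me3 coverage of the first exons of the 57 members in WT BMDM. The x axis is the ratio of observed to expected CpG dinucleotides, the y axis is the percent of the first exon under peaks, and each point is a gene, colored by cluster. Gamma genes lie near 100% or at 0% over a wide range of CpG ratio, while beta genes lie at 0% on the left and most alpha genes at 0% on the right.

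Within the gamma cluster, the 11 first exons covered in all genotypes had a median CpG ratio of 0.637 (0.394 to 0.733), and the other 10 had 0.466 (0.345 to 0.780). The ranges overlap. Median GC content of the same sets was 52.6% and 52.3%. Members also differ in how much sequence they share, which bears on where short reads can be placed. The share of 50-base stretches of a first exon that recur in another member had a median of 14.7% in the alpha cluster (highest 23.4%), 4.26% in the beta cluster and 0.601% in the gamma cluster (highest 17.2%, at Pcdhgb2). It was 0% for each C-type gene. The 11 gamma genes covered in all genotypes had a median of 0.273%, and the other 10 had 0.730%. The part of such recurrence in the pattern of peaks was not tested.

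H3K27ac was not found upstream, at the start or in the first exon of any member. Over the 5 kb upstream of the transcription start, 0 of 57 genes had at least 200 bp under an H3K27ac peak in each genotype, beside 27% of all protein-coding genes in WT BMDM, 22.8% in mdx and 23.4% in mdxTLR4-/-. Within 1 kb on each side of the start the count was also 0 of 57 in each genotype, beside 27.7%, 23.7% and 25.7%. Over the gamma cluster 0 of 902 windows were under a peak in each genotype, with an upper Wilson limit of 0.424%, which treats the windows as independent. H3K27ac peaks were small, with a median of 10 reads in WT BMDM, 10 in mdx and 8 in mdxTLR4-/- and a minimum of 5 reads, and the mdxTLR4-/- list rested on 1 ChIP library, so that weak signal may not have been detectable at this depth.

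Between Pcdha1 and the end of the gamma cluster, 3 H3K27ac peaks were present in WT BMDM, 4 in mdx and 1 in mdxTLR4-/-, and 0 of them touched an H3K27me3 peak. The share of all H3K27ac peaks that touch H3K27me3 was not computed. H3K27me3 lay over 7.92%, 8.60% and 6.51% of the windows of this span in WT, mdx and mdxTLR4-/- BMDM. With so few H3K27ac peaks, the lack of contact does not show that the marks exclude each other. The peak found in all genotypes lay at the start of Taf7, which encodes a subunit of the general transcription factor TFIID and sits between the beta and gamma clusters. It held 30 reads in WT BMDM, 22 in mdx and 19 in mdxTLR4-/-, and lay 16.0, 17.0 and 16.8 kb from the first exon of Pcdhga1. An H3K27me3 peak stood upstream of Taf7 in each genotype, at chr18:37646601-37651400 with 163 reads in WT BMDM, chr18:37646001-37651200 with 207 reads in mdx and chr18:37646201-37650400 with 144 reads in mdxTLR4-/-. The H3K27ac at Taf7 thus lay between the beta cluster, without H3K27me3, and the H3K27me3 peaks of the gamma side. Between that region and Pcdhga1, a further H3K27me3 peak was present in each genotype, with 95 reads in WT BMDM, 98 in mdx and 24 in mdxTLR4-/-, and a peak of 48 reads was listed for WT alone. The other H3K27ac peaks held 7 to 12 reads. In mdx BMDM 1 lay 5.77 kb from the first exon of Pcdha8 (7 reads) and 1 lay 8.06 kb from that of Pcdhb9 (12 reads). The peak near Pcdha8 lay inside the overlapping gene bodies of Pcdha1 and the other alpha genes that start before it. Near Pcdhb8, peaks lay 8.20 kb away in WT (7 reads) and 6.60 kb away in mdx BMDM (8 reads).

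Over whole genes, no member reached the limit for the mark. In the window from 5 kb upstream of a gene to 1 kb past its end, 0 of 57 members had at least 50% under H3K27me3 in each genotype, beside 16.7%, 16.4% and 14.9% of all protein-coding genes. The median window coverage of gamma genes was 31.9% in WT BMDM, 33.9% in mdx and 30.9% in mdxTLR4-/-. These windows overlap and end at the same place, so that they are close to 1 measurement repeated.

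Other cadherin family genes were read in the same lists. Of 12 non-clustered protocadherins, 7 had a covered first exon in each genotype. Over all protein-coding genes 23.7% were covered in WT BMDM, 24% in mdx and 23% in mdxTLR4-/-. The 7 covered genes include Pcdh1 and Pcdh12, which lie on the same chromosome and had 100% in each genotype. Pcdh10 had 100% in WT BMDM, 97.6% in mdx and 100% in mdxTLR4-/-. Pcdh18 had 44.8% in WT BMDM, 44.8% in mdx and 0% in mdxTLR4-/-. Pcdh9, Pcdh11x, Pcdh15 and Pcdh20 had 0% in each genotype. With at least 50% of 1 kb on each side of the start under peaks as the limit, the counts were 8, 8 and 6. Of 10 cadherins, 9 were covered in each genotype, including Cdh1 (E-cadherin of epithelia) and Cdh5 (of endothelium) with 100%. None of these 22 genes had H3K27ac at its start. The difference from the clustered genes was not tested.

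Genes that act on the clusters mostly carried H3K27ac. Of 12 regulators, which include the insulator protein gene Ctcf, the cohesin genes Rad21, Smc1a and Smc3, and Smchd1, a chromosomal protein that represses the clusters, 9 had H3K27ac within 1 kb of the start in WT BMDM, 9 in mdx and 8 in mdxTLR4-/-. Ctcf had 579 bp of that window under a peak in WT BMDM, 1979 bp in mdx and 0 bp in mdxTLR4-/-. The mdxTLR4-/- list rested on 1 ChIP library with a median of 8 reads per peak. Whether weak signal at Ctcf went undetected there was not tested. The first exons covered by H3K27me3 were 0 in WT BMDM, 1 in mdx and 0 in mdxTLR4-/-. That 1 was Dnmt3b, a DNA methyltransferase, with 100% of its first exon and 6.32% of its gene window in mdx BMDM. Over all protein-coding genes 2.23% were covered in mdx and not in WT BMDM. The mdx list held 41780 peaks against 28143 for WT, and the part of list size was not tested. Of 18 other protein-coding genes within 200 kb of the clusters, Taf7 included, 0 had a covered first exon in any genotype, and 5, 4 and 6 had H3K27ac at the start.

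The cells were checked against marker genes. All 10 macrophage markers had H3K27ac at the start in each genotype. Of 6 neuron, 5 muscle, 3 T and B cell and 3 fibroblast markers, 0 had H3K27ac at the start in any genotype, and 3, 4, 3 and 2 had a covered first exon in each genotype. Over all protein-coding genes, 27.7%, 23.7% and 25.7% had H3K27ac at the start in WT, mdx and mdxTLR4-/- BMDM. A covered first exon was found for 23.7%, 24% and 23% in the same order. The H3K27me3 lists held 8331331 reads in WT BMDM, 10199918 in mdx and 7358418 in mdxTLR4-/-. Densities at the 1st percentile of the lists were 15.5, 18.0 and 14.1 reads per kb, which is one limit on how thin a domain could be and still be listed.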

How the data were processed

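BMDM of 3 genotypes were studied by native ChIP after digestion with micrococcal nuclease. The authors mapped reads to mm10 with Bowtie2, merged replicates and called peaks with SICER2 (window 200 bp, gap 600 bp, FDR below 0.01). The submitters' processing notes also name CASAVA 1.8, cutadapt 1.15, Bowtie2 2.3.4 and SICER 2.0. Each deposited peak carries the read count of the ChIP library, left unscaled by the authors for depth and length. Samples labelled mTLR4 were taken as mdxTLR4-/-. The removal of duplicate or multiply mapped reads is not given in the sources used here, and library depth is unknown.

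Members and gene lists were chosen with earlier results of these data known. Genes came from GENCODE vM21 (GRCm38), and the first exon was that of the protein-coding transcript with the longest coding sequence. All 57 members had ATG at the annotated coding start in the RefSeq GRCm38 sequence, and 0 peaks ran past a chromosome end. Peaks were merged where they overlapped by at least 1 bp. No test was run, since each genotype has 1 list. Intervals are at the 95% level.

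Named genes were the first and last member of each cluster, the C-type members, those with the lowest and highest coverage in WT, those whose designation differed, and fixed lists. The other members covered in all genotypes, and Pcdha8, Pcdha11, Pcdhb8, Pcdhb9, Pcdhga2, Pcdhga4 and Pcdhgb8, were named after their values were seen. The alternatives were minimum coverage, the interval around the start, the choice of transcript, peak length, read density, equal list sizes, minimum reads and scaling between lists. Coverage was exact in 4000 of 4000 simulated windows. The tools were matplotlib 3.10.9, pandas 2.3.3, scipy 1.17.1, numpy 2.4.6 and Python 3.11.15. Sequence was used for the base composition of first exons, their recurrent 50-base stretches and the coding starts. Expression and input reads were not analysed here. The result of 1 listed gene is not reported here.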

Additional observations from a re-analysis of the deposited data

How the results depend on the processing

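Of 89 values computed under an alternative, 72 stayed within 1.5 times the count or within the interval of the reported value, 15 moved and 2 reversed. Many of the 72 could not have moved, so this tally is no measure of stability. A count or coverage of 0 stays at 0 when peaks are removed or a limit is made stricter. The equal list size also left the WT H3K27me3 and the mdx H3K27ac lists uncut. Scaled to 1000000 reads in peaks, the ratio of density in shared gamma regions was 0.886 for mdx over WT (reversed) and 0.929 for mdxTLR4-/- over WT. Set against the 1st percentile of density, the ratio for mdx was 0.932 (reversed), with an interval of 0.867 to 1.002 that includes 1. That for mdxTLR4-/- was 0.899 (0.831 to 0.971). With peaks of at least 1.5 times the 1st percentile of density, gamma coverage was 21.5% in WT BMDM, 22.0% in mdx and 19.6% in mdxTLR4-/-, and 11, 10 and 10 members were covered. With the same number of peaks per list, gamma coverage was 31.3% for WT, 27.2% for mdx and 19.6% for mdxTLR4-/-, so that mdx went from above WT to below it. At a minimum of 90% of the first exon, 14, 10 and 10 members were covered in the same order, so that WT and mdx no longer had equal counts. At a minimum of 20% of the gene window, the counts were 17, 18 and 17 members for WT, mdx and mdxTLR4-/- BMDM. With H3K27ac peaks of at least 10 reads, coverage was 0% of the beta cluster in WT, 1.39% in mdx, and 0% of the alpha cluster in mdx BMDM. The stricter density and the equal lists each left 8 gamma genes covered in all genotypes, the same genes in both: Pcdhga8, Pcdhga9, Pcdhgb6, Pcdhga10, Pcdhgb7, Pcdhga11, Pcdhgc3 and Pcdhgc4. At the stricter density Pcdhga1, Pcdhgb1, Pcdhgb2, Pcdhga5, Pcdhga6 and Pcdhgb5, whose designation differed between genotypes, were uncovered in all 3, while Pcdhga7, Pcdhgb4 and Pcdhga12 came to differ. With equal lists Pcdhga1 and Pcdhgb1 were still IIU and Pcdhgb2 still UIU, and Pcdhgb4, Pcdhga12, Pcdhga7, Pcdhga6 and Pcdhgb5 also differed. No paired analysis was possible because each genotype has 1 list from merged replicates, and for the same reason no replicate could be left out.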
